A study of Mus musculus with 6 samples.

Results

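A set of 10 genes of the osteoclast, the multinucleated cell that dissolves bone, were followed in macrophages grown from mouse bone marrow monocytes. They are Dcstamp, Ocstamp, Acp5, Ctsk, Mmp9, Nfatc1, Tnfrsf11a, Calcr, Atp6v0d2 and Oscar, taken by name from the 24411 genes listed for each library, and all 10 were listed. The C57BL/6 monocytes had been sorted by flow cytometry as LFA1-lo Itgam-lo or LFA1-hi Itgam-hi and grown for 7 days in RPMI with 10% serum and 20 ng/ml M-CSF, a macrophage growth factor, renewed on day 4. Both groups shared strain, medium and time, and the labels give the sort as what differed. Each group had 3 RNA sequencing libraries, called LFA1-lo and LFA1-hi here. Neither the number of mice behind a library nor any pooling is stated in the labels, so p-values measure only how these libraries spread, and that spread could be technical. The listed medium names no RANKL, the cytokine that drives osteoclast formation.

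Osteoclasts arise from the same monocyte precursors as macrophages. RANKL binds the receptor RANK, encoded by Tnfrsf11a, and a costimulatory signal runs through receptors such as OSCAR; both lead to the transcription factor NFATc1, which switches on genes for cell fusion and for the enzymes and acid that dissolve bone. Several of these genes are also expressed by macrophages without RANKL, and the fusion proteins act in macrophage giant cells as well.

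Library totals were 15191262 to 17614509 counts, so that 3 counts, the floor used for a gene without counts, came to 0.170 to 0.198 CPM (counts scaled to a total of 1000000). Macrophage markers were abundant in every library: the 8 fixed markers summed to 27446 to 39482 TPM (transcripts per 1000000, which corrects for gene length) in LFA1-lo and 23806 to 27023 TPM in LFA1-hi, and 4 were lower in LFA1-hi, Csf1r and Adgre1 among them (log2 fold change −1.02 and −0.83; 2 were lower without LFA1-hi replicate 2 or 3). The 5 B cell, 5 T and NK cell, 5 mast cell and basophil and 4 erythroid markers summed to at most 6.86, 0.32, 1.01 and 0.68 TPM in a library. Replicate 2 of LFA1-lo differed from its group for many of the genes below, and values without it are given. In these bulk samples, fewer cells of a type and less RNA per cell cannot be told apart.

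The 10 genes did not move as a block. Acp5 rose in LFA1-hi macrophages, Dcstamp, Mmp9 and Tnfrsf11a fell, Ocstamp, Ctsk, Nfatc1 and Atp6v0d2 did not pass the test, and Calcr and Oscar were too low to be tested. Thus 1 of 8 tested members was called higher, beside 16.1% of all 11692 tested genes, and 3 of 8 were called lower, beside 15.6% (edgeR quasi-likelihood test, Benjamini-Hochberg adjusted p under 0.05 over all tested genes; 31.7% of all genes passed in either direction). Over all genes 1883 were higher and 1822 lower, against 2294 and 1471 with scaling by library totals only, which left the calls of the members as they were. Without LFA1-lo replicate 2 more of all genes passed, 2589 higher and 2443 lower. The libraries of the groups did not overlap for the same 4 called members, whereas 48.1% of all tested genes showed no overlap. The median log2 fold change of the tested members was −0.54, that of all tested genes −0.0047; without LFA1-lo replicate 2 the members' median was −0.28. Both shares rest on few genes.

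**Figure D1:**
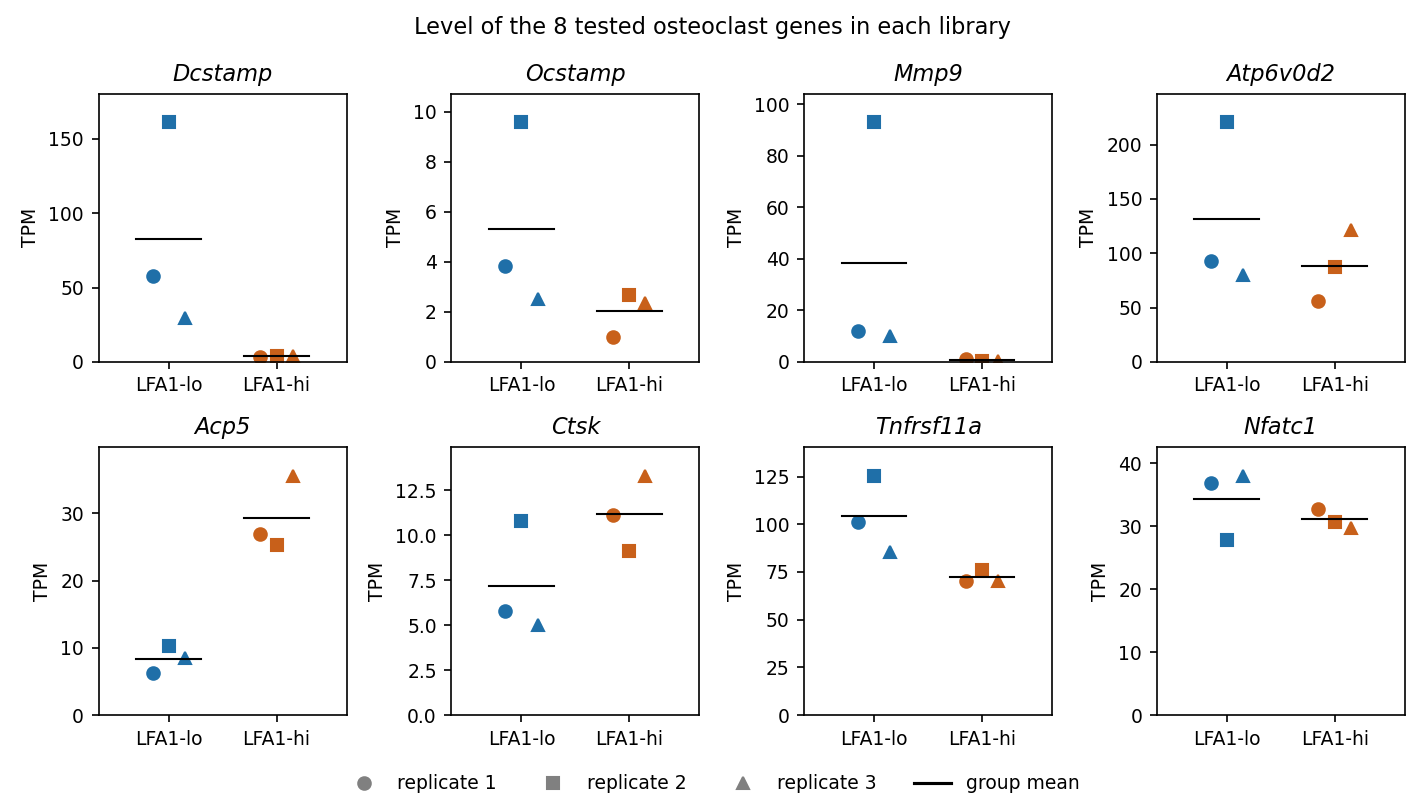
Level in TPM of the 8 tested genes in each of the 6 libraries, with each panel on its own linear axis from 0; circles, squares and triangles are replicates 1, 2 and 3 and lines are group means (n = 3 each). LFA1-lo replicate 2 is the highest LFA1-lo library for every panel but Nfatc1, and Acp5 is the panel in which all LFA1-hi libraries lie above all LFA1-lo libraries.

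The signal for osteoclast formation enters through RANK. Tnfrsf11a (GRCm38 chromosome 1, 105780673 to 105849444) was at 101, 126 and 85.6 TPM in LFA1-lo replicates 1, 2 and 3 and at 70.2, 76.2 and 70.2 TPM in LFA1-hi replicates 1, 2 and 3. All LFA1-hi libraries thus lay below all LFA1-lo libraries, by a moderate distance, and the receptor gene stayed well expressed in both. Its log2 fold change (LFA1-hi minus LFA1-lo) was −0.51 (SE 0.14, 95% interval −0.82 to −0.20, edgeR adjusted p = 0.0206), or 1.42-fold lower. The call was lost without LFA1-hi replicate 1, 2 or 3 (adjusted p = 0.0783, 0.0659 and 0.0741, within a range of 0.00202 to 0.0783 over alternatives), where the value stayed near −0.5. Without LFA1-lo replicate 2 the fall was smaller and kept its call (−0.33, 1.26-fold, adjusted p = 0.00202).

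Nfatc1, the master transcription factor downstream of RANK, did not pass the test. It was at 36.9, 27.8 and 38.0 TPM in LFA1-lo and at 32.8, 30.7 and 29.8 TPM in LFA1-hi. The LFA1-hi values lay inside the LFA1-lo range, whose lowest library was replicate 2. A log2 fold change of −0.12 was fitted (SE 0.11, edgeR adjusted p = 0.475), with a 95% interval of −0.37 to 0.14. Without LFA1-lo replicate 2 a small fall passed (−0.23, adjusted p = 0.0339; range 0.0339 to 0.842 over alternatives). Nfatc1 overlaps the predicted gene Gm52342 in the annotation, and reads of the overlap could be assigned to either.

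Oscar and Calcr were at or near 0. Calcr, the receptor through which calcitonin halts osteoclasts (chromosome 6, 3685678 to 3764713), had 0 counts in all 6 libraries. Oscar, the collagen-binding costimulatory receptor (chromosome 7, 3609813 to 3616157), had 1 count, in LFA1-lo replicate 3, and 0 in the others. Both lay under the floor of 3 counts a library, so no fold is given and expression below that floor was not detectable at this depth. An exact permutation test over the 6 samples gave p = 1 for Oscar, as it must where 1 library alone has counts, so it tells nothing about the groups.

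Dcstamp and Ocstamp encode multipass membrane proteins that precursors need in order to fuse. Dcstamp (chromosome 15, 39745930 to 39760938) was at 57.7, 161 and 29.7 TPM in LFA1-lo replicates 1, 2 and 3 and at 3.23, 3.79 and 4.09 TPM in LFA1-hi. The lowest LFA1-lo library was far above the highest LFA1-hi library, and the LFA1-lo libraries spread 5.26-fold among themselves against 1.26-fold in LFA1-hi (by CPM). Its log2 fold change was −4.63 (SE 0.77, 95% interval −6.55 to −2.71, edgeR adjusted p = 0.00803), or 24.8-fold lower. Without LFA1-lo replicate 2 the fall was 12.8-fold (log2 −3.68, adjusted p = 2.41e-05), and the call held in all 18 alternatives, with adjusted p from 1.4e-09 to 0.0303.

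Ocstamp (chromosome 2, 165395450 to 165400394) was lower in both groups, at 3.84, 9.58 and 2.52 TPM in LFA1-lo and 1.01, 2.68 and 2.37 TPM in LFA1-hi. LFA1-lo replicate 2 again stood out, and LFA1-lo replicate 3 lay among the LFA1-hi libraries. The log2 fold change of −1.40 (SE 0.56, 95% interval −2.66 to −0.13) did not pass (edgeR adjusted p = 0.0891). Leaving out LFA1-lo replicate 3 gave a call (−1.74, adjusted p = 0.0304), as did DESeq2 (−1.40, adjusted p = 0.0386), over alternatives from 0.0304 to 0.274. Leaving out LFA1-lo replicate 2 gave −0.62 (adjusted p = 0.274).

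The files also held a second readout for Dcstamp, the gene length that RSEM reports as the mean over its transcripts weighted by their estimated shares. It was 1937, 1919 and 1968 bases in LFA1-lo and 1730, 1813 and 1731 bases in LFA1-hi, so the LFA1-hi libraries were all shorter, by 184 bases on average (LFA1-lo 1942 ± 24.9, LFA1-hi 1758 ± 47.6 bases, mean ± SD, n = 3 each; exact 2-sided permutation p = 0.1, the smallest that 3 against 3 allows). The length was lower in every LFA1-hi library for 5.7% of the 3266 tested genes whose length varied between libraries, and 83 of these genes (2.54%) shifted by at least as large a fraction as Dcstamp in either direction. The other tested members with several transcripts, Acp5 and Nfatc1, shifted by −7.62 and −3.33 bases (exact permutation p = 0.6 and 0.7). The LFA1-hi estimates rest on 50, 52 and 63 counts, and the part of that low depth in the shift was not tested.

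The files list 5 Dcstamp transcripts, of which 2 match the same GENCODE M21 model (GRCm38), Dcstamp-201. The 4 matching models show, in exon 3, a part of what separates long from short. Dcstamp-201 has 1997 bases, Dcstamp-203 has 1825, Dcstamp-205 has 1684 and Dcstamp-204 has 1367. The longest keeps the whole of exon 3 (chromosome 15, 39759314 to 39759622, 309 coding bases), Dcstamp-203 and Dcstamp-204 lack its first 168 bases, which make up 56 codons, and Dcstamp-205 lacks the exon. Exon 3 is not the whole difference, as Dcstamp-203 and Dcstamp-204 lack the same bases but have 1242 and 1176 coding bases. The stretch missing from all 3 shorter models, at chr15:39759314-39759481 on the plus strand, is shown because the longest model alone of these 4 holds it.
Dcstamp exon 3 start: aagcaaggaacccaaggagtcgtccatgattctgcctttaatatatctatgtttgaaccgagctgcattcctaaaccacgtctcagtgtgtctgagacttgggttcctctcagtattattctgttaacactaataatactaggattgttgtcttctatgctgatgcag
A mean length can arise from many mixes of the 4 models, also of the longest with Dcstamp-204, and shares of single transcripts are not given in the gene-level files used here.

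**Figure D2:**
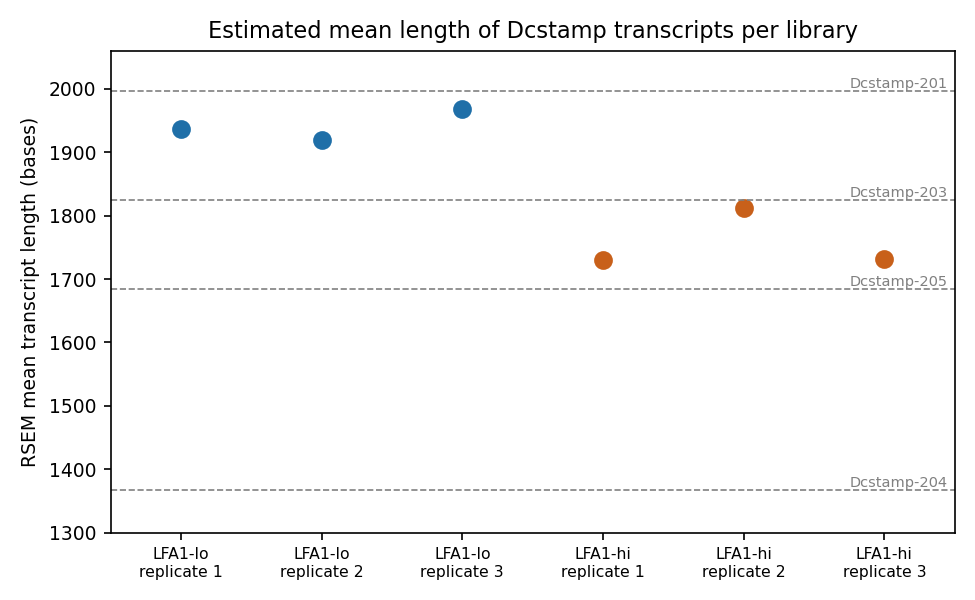
Mean Dcstamp transcript length in bases as estimated by RSEM, for each library (points), on an axis that does not start at 0; dashed lines mark the lengths of the 4 matching GENCODE models. LFA1-lo libraries lie at 1919 to 1968 bases and LFA1-hi libraries at 1730 to 1813 bases.

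Mmp9 encodes gelatinase B, a secreted matrix protease of osteoclasts, macrophages and neutrophils (chromosome 2, 164940326 to 164955850). It was at 11.9, 92.9 and 10.0 TPM in LFA1-lo replicates 1, 2 and 3 and at 1.02, 0.20 and 0.46 TPM in LFA1-hi, where the counts were 31, 5 and 14. The groups did not overlap, and LFA1-lo replicate 2 was 8.53 times the mean CPM of the other LFA1-lo libraries. Its fitted log2 fold change was −6.04 (SE 1.49, 95% interval −9.94 to −2.14, edgeR adjusted p = 0.0384), and 18.3-fold lower (log2 −4.19, adjusted p = 2.99e-05) without LFA1-lo replicate 2. The call was lost with limma voom (adjusted p = 0.133), without a filter on low counts (0.0658), and without LFA1-hi replicate 2 (0.0894), LFA1-hi replicate 3 (0.127) or LFA1-lo replicate 3 (0.0514), over alternatives from 2.99e-05 to 0.133, all with a log2 fold change of −3.96 or lower. DESeq2 gave no adjusted p for it.

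Neutrophil granules also carry this protease, and several granulocyte markers were lower in LFA1-hi. The 11 of 12 granulocyte markers found in the files summed to 54.7, 153 and 191 TPM in LFA1-lo and 31.7, 23.7 and 35.6 TPM in LFA1-hi. Of the 4 that were tested 3 fell, the granule gene Ngp, S100a9 and Ltf, with log2 fold changes of −4.19, −4.08 and −3.86 (edgeR adjusted p = 0.00485, 0.00117 and 0.00786). The other, S100a8, did not pass (−0.86, edgeR adjusted p = 0.149). Without LFA1-lo replicate 1 the filter let 6 be tested, of which 5 fell, these 3 with S100a8 and Lcn2. In LFA1-lo libraries S100a9 had 57 to 232 counts and Ngp 64 to 233. Mpo and Elane, genes of early granules, had 0 to 28 and 0 to 8 counts in LFA1-lo and 2 to 9 and 0 to 5 in LFA1-hi. Cxcr2 leaned the other way at low counts, with 0, 4 and 3 in LFA1-lo and 5, 8 and 10 in LFA1-hi. The marker sum was highest in LFA1-lo replicate 3 and Mmp9 in LFA1-lo replicate 2, and the part of granulocytes in the Mmp9 result was not tested. Of markers of other cells, the 7 of dendritic cells summed to 0.12 to 1.05 TPM in LFA1-lo and 0.15 to 0.61 TPM in LFA1-hi, with Flt3 and Ccr7 at 0, and the 8 of osteoblasts and stromal cells to 4.78 to 5.30 and 3.35 to 3.71 TPM, with Sp7, Bglap and Alpl at 0. Runx2 made up most of the latter sum, at 4.32 to 4.99 TPM in LFA1-lo and 3.33 to 3.41 TPM in LFA1-hi. Its fall (log2 −0.41, edgeR adjusted p = 0.0482) kept its call, of the fits without a library, only without LFA1-lo replicate 2.

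Acp5 encodes tartrate-resistant acid phosphatase, the enzyme stained to identify osteoclasts, and was the member that rose (chromosome 9, 22126727 to 22135746). It was at 6.28, 10.2 and 8.53 TPM in LFA1-lo and at 26.9, 25.3 and 35.6 TPM in LFA1-hi. Every LFA1-hi library lay well above every LFA1-lo library. Acp5 had a log2 fold change of 1.82 (SE 0.23, 95% interval 1.31 to 2.33, edgeR adjusted p = 0.000459), or 3.52-fold higher. It passed in all 18 alternatives, with log2 fold changes of 1.64 to 2.02 and adjusted p of at most 0.00436.

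Ctsk encodes cathepsin K, the protease that cuts collagen in the acid space under the osteoclast (chromosome 3, 95499210 to 95509387). It was at 5.78, 10.8 and 5 TPM in LFA1-lo and at 11.1, 9.12 and 13.3 TPM in LFA1-hi. LFA1-lo replicate 2 lay among the LFA1-hi libraries and the other LFA1-lo libraries below all of them. The log2 fold change of 0.65 (SE 0.32, 95% interval −0.06 to 1.37) did not pass (edgeR adjusted p = 0.149). Without LFA1-lo replicate 2 the rise was 2.14-fold and passed (adjusted p = 0.00235; range 0.00235 to 0.379 over alternatives).

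Sequences just before the start sites of Acp5, Ctsk and Tnfrsf11a are shown because the first had the clear rise, the second leaned the same way and the third fell. They are from RefSeq (GRCm38.p6), whose table holds starts for 5 of the 10 members and not for Dcstamp, Ocstamp, Mmp9, Nfatc1 or Atp6v0d2. Each is the 250 bases before the start, at chr9:22130599-22130848 on the minus strand for Acp5 (of 3 starts, the one nearest the coding sequence, so that all 250 bases lie inside the gene's whole span), chr3:95498960-95499209 on the plus strand for Ctsk and chr1:105780473-105780722 on the plus strand for Tnfrsf11a, whose listed start leaves the last 50 bases of the window inside the gene's whole span. Capitals mark matches, on either strand, to short motifs of factors known to act on osteoclast genes: GAGGAA for PU.1, CACGTG or CATGTG for MITF and TFE factors, TGANTCA for AP-1 and GGAAA for NFAT.
Acp5: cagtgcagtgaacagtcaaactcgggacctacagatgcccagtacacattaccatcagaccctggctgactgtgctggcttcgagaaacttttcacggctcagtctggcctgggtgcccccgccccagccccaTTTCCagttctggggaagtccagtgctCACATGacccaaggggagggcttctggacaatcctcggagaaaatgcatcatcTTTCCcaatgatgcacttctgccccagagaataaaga
Ctsk: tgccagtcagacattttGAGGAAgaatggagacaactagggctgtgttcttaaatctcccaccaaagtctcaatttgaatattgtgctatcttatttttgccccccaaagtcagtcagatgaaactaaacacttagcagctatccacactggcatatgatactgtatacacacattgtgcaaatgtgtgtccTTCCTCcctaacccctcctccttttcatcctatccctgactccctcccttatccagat
Tnfrsf11a: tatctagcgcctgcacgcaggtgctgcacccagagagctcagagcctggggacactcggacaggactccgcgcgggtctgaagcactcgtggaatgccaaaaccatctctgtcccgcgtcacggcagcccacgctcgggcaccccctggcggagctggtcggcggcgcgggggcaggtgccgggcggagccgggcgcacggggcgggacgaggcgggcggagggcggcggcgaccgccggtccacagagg

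The Acp5 window held 1 match to the MITF and TFE motif, at position −90 from the start, and 2 to the NFAT motif. The Ctsk window held 2 matches to the PU.1 motif, and the Tnfrsf11a window held none of the 4 motifs. Such short motifs are common: among 32851 windows of the same length, 23.3% held the PU.1 motif, 17.6% the MITF and TFE motif, 6.75% the AP-1 motif and 55.6% the NFAT motif. The windows differed in base composition, with 54.4% G and C for Acp5, 43.2% for Ctsk and 73.6% for Tnfrsf11a, against a median of 52.4%. A match is a description of the letters and was not tested as a site.

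Atp6v0d2, the d2 subunit of the membrane part of the proton pump, which also takes part in fusion, was the most abundant member by group mean (chromosome 4, 19876838 to 19922566). It was at 93.1, 221 and 80.2 TPM in LFA1-lo and at 55.9, 87.5 and 122 TPM in LFA1-hi. The groups overlapped broadly, and this was the member with the widest LFA1-hi spread after Mmp9 and Ocstamp, at 2.17-fold. Its log2 fold change was −0.56 (SE 0.50, 95% interval −1.81 to 0.68, edgeR adjusted p = 0.445). Without LFA1-lo replicate 2 it was 0.072 (adjusted p = 0.911, within 0.282 to 0.911 over alternatives).

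**Figure D3:**
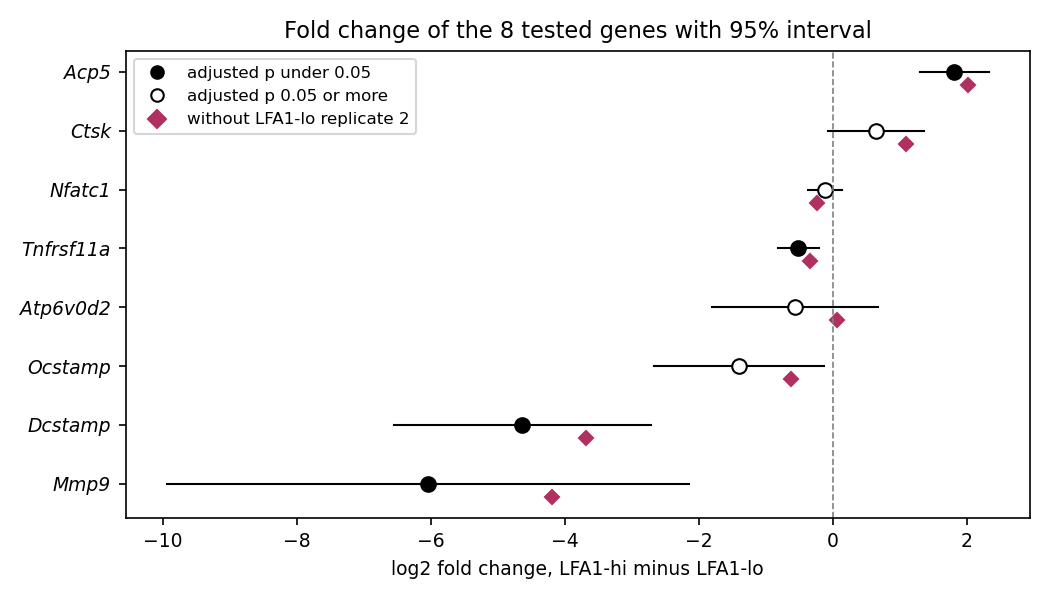
Log2 fold change (LFA1-hi minus LFA1-lo) of the 8 tested genes on a linear axis, with the 95% interval of the edgeR fit to all 6 libraries (circles, filled where the adjusted p is under 0.05) and the value without LFA1-lo replicate 2 (diamonds). Acp5 lies at 1.82, Dcstamp at −4.63 and Mmp9 at −6.04, and Atp6v0d2 moves from −0.56 to 0.072 without that library.

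Within LFA1-lo, replicate 2 held the peak of most members. It was the highest of its group for 7 of the 8 tested members and the lowest for Nfatc1, whereas over all tested genes it was the highest for 33.1% and the lowest for 44.0%. Its CPM was more than 2 times the mean of LFA1-lo replicates 1 and 3 for 5 members, and for 2.54% of all tested genes. The ratios were 8.53 for Mmp9, 3.66 for Dcstamp, 3.04 for Ocstamp, 2.57 for Atp6v0d2 and 2.02 for Ctsk, beside 1.41 for Acp5, 1.35 for Tnfrsf11a and 0.746 for Nfatc1. This is 1 library, so it carries no test. In the same library, macrophage markers summed to 27446 TPM, the lowest of the LFA1-lo libraries, of which Lyz2 made up 21471 TPM. Lyz2, Csf1r, Adgre1, Mertk and Mrc1 were lowest there, Mrc1 at 191 TPM against 404 and 445 TPM. Cd68 and Fcgr1 were highest there, Fcgr1 at 126 TPM against 68.9 and 107 TPM, and C1qa lay between the others. The part of these differences in the members' levels was not tested.

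**Figure D4:**
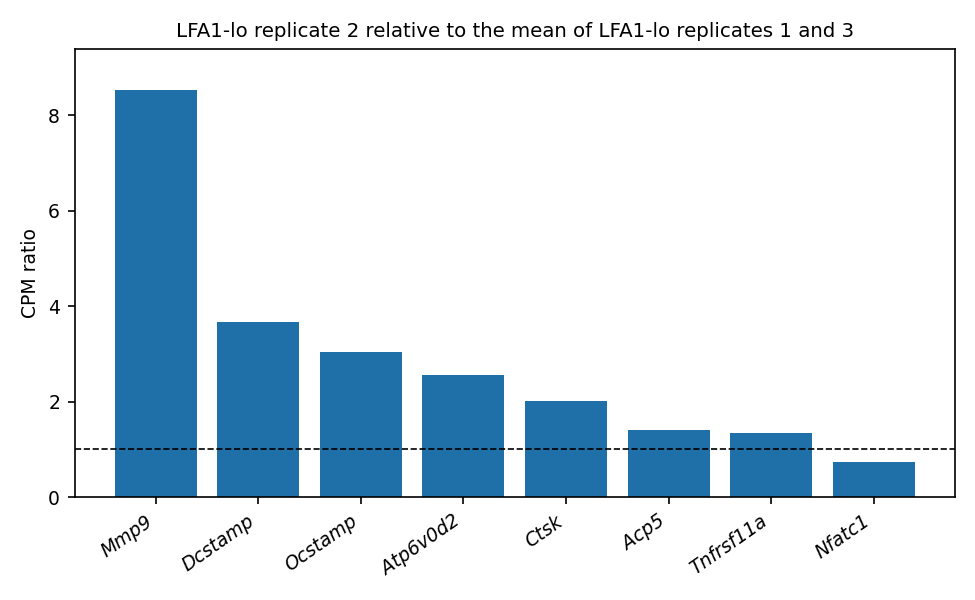
CPM in LFA1-lo replicate 2 divided by the mean CPM of LFA1-lo replicates 1 and 3, for the 8 tested genes (bars from 0; the dashed line marks a ratio of 1). Ratios run from 8.53 for Mmp9 to 0.746 for Nfatc1.

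The order of levels shifted between the groups. In LFA1-lo the means ran from Atp6v0d2 (131 ± 77.6 TPM, mean ± SD, n = 3) through Tnfrsf11a (104 ± 20.1), Dcstamp (82.8 ± 69.2), Mmp9 (38.3 ± 47.3) and Nfatc1 (34.2 ± 5.58) to Acp5 (8.35 ± 1.99), Ctsk (7.19 ± 3.14) and Ocstamp (5.31 ± 3.75). The ranges of neighbours overlapped except between Nfatc1 and Acp5 and between Ocstamp and Oscar. In LFA1-hi Atp6v0d2 (88.4 ± 32.9 TPM) and Tnfrsf11a (72.2 ± 3.49) again led and their ranges overlapped, then came Nfatc1 (31.1 ± 1.53) and Acp5 (29.2 ± 5.57), which overlapped, and Ctsk (11.2 ± 2.10). Dcstamp (3.70 ± 0.437), Ocstamp (2.02 ± 0.888) and Mmp9 (0.560 ± 0.419) followed, of which Ocstamp and Mmp9 overlapped. Dcstamp thus went from the third place to the sixth, and its share of the members' summed TPM from 11.4% to 24.5% in LFA1-lo libraries to 1.47% to 1.61% in LFA1-hi.

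Other genes with a like course over the 6 libraries were sought for each called member, by the root mean square difference of log2 CPM after centring each gene on its mean, among 11201 other genes with a mean of at least 1 CPM. For Dcstamp the nearest were the chemokine gene Ccl22 (difference 0.38), the matrix gene Tnc (0.47) and Il1b (0.47), which encodes interleukin-1 beta. Ccl22 had 3.76, 6.52 and 1.11 CPM in LFA1-lo and 0.0568, 0.197 and 0.114 CPM in LFA1-hi. In LFA1-hi, Ccl22, Tnc and Il1b all lay at or under the floor of 3 counts, where likeness to Dcstamp, with 50 to 63 counts, is uncertain. For Mmp9 the nearest were Cd74 (0.62), the invariant chain of class II antigen presentation, the class II gene H2-Aa (0.64) and Lrrc32 (0.87). Cd74 was at 37.2, 214 and 44.6 CPM in LFA1-lo and at most 4.996 CPM in LFA1-hi, so it shared the peak in LFA1-lo replicate 2. For Acp5 they were Heg1 (0.09), Ccne1 (0.17), which encodes cyclin E1, and Pask (0.18), and for Tnfrsf11a Sertad2, Prrc2c and Adssl1 (0.04 to 0.05).

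The rest of the pathway was read from 9 lists. Of 23 tested genes that carry or restrain the RANK signal 11 fell and 0 rose (median log2 fold change −0.27, and 7 fell without LFA1-hi replicate 2). The largest falls were in the noncanonical NF-kB branch: Relb (38.4 ± 4.27 to 9.70 ± 1.88 CPM, n = 3 each; log2 −2.05, SE 0.16, adjusted p = 4.77e-05 in edgeR), Nfkb2 (−1.51, adjusted p = 2.62e-05) and Map3k14, the kinase NIK (−1.07, adjusted p = 0.000711). Traf6, the adaptor of RANK, did not pass (0.02, adjusted p = 0.88). Tnfsf11, which encodes RANKL itself, and Tnfrsf11b, which encodes its decoy osteoprotegerin, had 0 counts in all libraries.

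Of 22 tested genes of costimulation and calcium signalling 3 rose and 5 fell (median −0.11), beside 16.1% and 15.6% of all tested genes. Without LFA1-lo replicate 2, where 2443 of all genes were lower, 8 fell. The calcium channel gene Itpr1 rose by 0.77 and the adaptor gene Lcp2 by 0.76 on the log2 scale (edgeR adjusted p = 0.000912 and 0.00395), while the adaptor gene Blnk fell by 0.75 (adjusted p = 0.00216). Of 15 transcription factors that promote osteoclast formation 8 fell and 3 rose (median −0.46); 8 or 9 fell in each fit without a library, but none rose without LFA1-hi replicate 1 or 2 and 1 rose without LFA1-hi replicate 3 or LFA1-lo replicate 1. The largest falls were of Prdm1, which encodes Blimp1 (42.4 ± 1.26 to 13.7 ± 2.96 CPM; log2 −1.69, SE 0.16, adjusted p = 9.42e-05), Fos (−1.44, adjusted p = 0.00136) and Junb (−1.42, adjusted p = 0.000613).

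Of 11 repressors of osteoclast formation 2 rose and 3 fell (median 0.18), beside 16.1% and 15.6% of all tested genes. Id1, an inhibitor of helix-loop-helix factors, rose from 7.32 ± 1.59 to 47.1 ± 2.86 CPM, by 2.62 on the log2 scale (SE 0.16, edgeR adjusted p = 1.42e-05), while Pirb, an inhibitory receptor, fell (−0.91, adjusted p = 0.00015), as did Bcl6, a transcriptional repressor (−0.43, adjusted p = 0.0181, lost when LFA1-lo replicate 1 or a single LFA1-hi library was left out). Leaving out LFA1-lo replicate 2 brought the rises to 6, in a fit where calls over all genes also grew, to 2589 higher and 2443 lower. Leaving out LFA1-lo replicate 3 brought the rises to 1 and the falls to 5. With LFA1-lo replicate 1 left out 1 gene fell, and with any LFA1-hi library left out 1 rose and 1 fell.

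Of 19 further genes with a part in fusion 7 fell and 3 rose (median −0.14), beside 15.6% and 16.1% of all tested genes. Cd81, a tetraspanin that holds back fusion, fell from 256 ± 71.3 to 108 ± 11.8 CPM, a log2 fold change of −1.30 (SE 0.19, edgeR adjusted p = 0.00199), and Pstpip2, an adaptor that restrains osteoclast precursors, by 0.76 on the log2 scale (adjusted p = 0.00345). The membrane glycoprotein gene Cd200 rose at a low level (1.54, adjusted p = 0.0261, lost without LFA1-lo replicate 1 or 3 or LFA1-hi replicate 1 or 3). Falling members numbered 3 and 4 without LFA1-hi replicates 2 and 3, and 1 rose without LFA1-hi replicate 3.

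Of 22 tested genes of acid secretion 9 fell and 1 rose (median −0.17), beside 15.6% and 16.1% of all tested genes. But 2 fell whichever LFA1-hi library was left out and 5 without LFA1-lo replicate 1. Calls over all genes dropped in these fits too, from 1822 lower to 1099 to 1192 and to 1371. The proton pump subunit Atp6v0a1 fell from 866 ± 145 to 497 ± 42.1 CPM, a log2 fold change of −0.87 (SE 0.13, edgeR adjusted p = 0.00143). Tcirg1, which encodes the a3 pump subunit of osteoclasts, fell by 0.43 on the log2 scale (adjusted p = 0.0267, lost in fits that left out LFA1-lo replicate 1 or a single LFA1-hi library), and Ostm1, partner of the chloride transporter ClC-7, rose (0.35, adjusted p = 0.0126, lost without LFA1-lo replicate 1 or LFA1-hi replicate 3). With LFA1-lo replicate 2 or 3 left out, or with library totals alone, 2 genes rose, and with LFA1-lo replicate 1 or LFA1-hi replicate 3 left out none did. Of 12 genes of the sealing zone, the actin ring under which bone is dissolved, 5 fell and 0 rose (median −0.16). The falls numbered 2 when LFA1-lo replicate 1 or a single LFA1-hi library was left out or library totals alone were used, and 1 gene rose when LFA1-lo replicate 2 was left out. Src, a kinase that osteoclasts need to resorb, fell from 16.0 ± 6.97 to 3.09 ± 0.965 CPM (log2 −2.43, SE 0.36, adjusted p = 0.00161), with its highest value, 24.0 CPM, in LFA1-lo replicate 2. Pxn and Vcl, which encode the adhesion proteins paxillin and vinculin, fell by 0.46 and 0.35 on the log2 scale (edgeR adjusted p = 0.00175 and 0.0359); the call of Vcl was lost in the same fits that left 2 falls.

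Among 13 other matrix proteases and inhibitors 1 rose and 4 fell (median −0.15), beside 16.1% and 15.6% of all tested genes. Of these proteases and inhibitors 2 fell whichever LFA1-hi library was left out. The gene that rose was Mmp13, a collagenase, from 60.7 ± 10.3 to 158 ± 25.0 CPM (log2 1.32, SE 0.15, adjusted p = 0.000403 in edgeR), in the direction opposite to Mmp9. The inhibitor genes Timp2 (−0.73, adjusted p = 0.00122) and, at a low level, Timp1 (−2.46, adjusted p = 0.0261, lost with limma voom and when LFA1-lo replicate 2 or a single LFA1-hi library was left out) fell. The list called calcitonin receptor partners had 2 tested genes, Calcrl and Ramp1. Calcrl encodes the calcitonin receptor-like receptor, a separate receptor, and is not itself such a partner. Calcrl and Ramp1 gave −0.50 and −0.75 (edgeR adjusted p = 0.0946 and 0.101), and these 2 passed as lower without LFA1-lo replicate 3.

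**Figure D5:**
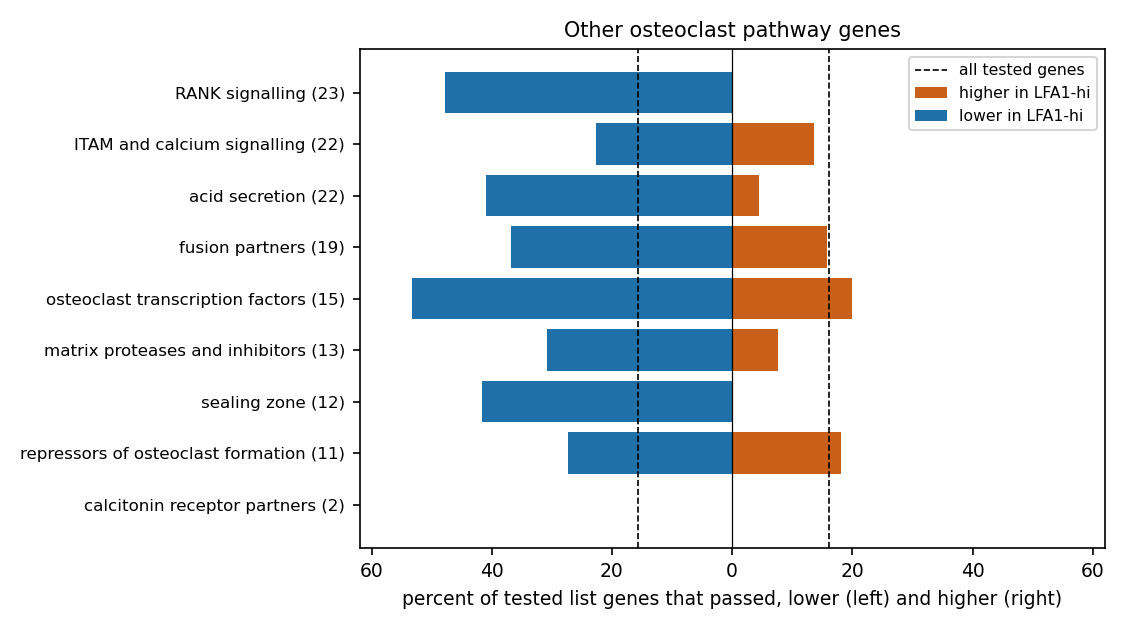
Percent of tested genes of each list that passed the edgeR test, lower in LFA1-hi to the left and higher to the right of 0, with the number tested in brackets; dashed lines give the same share of all tested genes, 15.6% lower and 16.1% higher. All lists come from the same 6 libraries, so bars are a description without a test.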

How the data were processed

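RNA of 3 LFA1-lo and 3 LFA1-hi macrophage libraries was depleted of ribosomal RNA and sequenced, per the labels' protocols. Tools named in the submitters' processing notes are bcl2fastq, Trim Galore and RSEM, with build GRCm38. Sources used here do not give the aligner, versions or strand use. The deposited expected counts are RSEM estimates per gene, not normalized, per the file headers. The deposited TPM and FPKM values are scaled by effective length and library size, and the deposited length is a mean over transcripts in bases, per the file headers.

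Expected counts were rounded (5.53% to 6.06% of genes were not whole), filtered with filterByExpr, scaled by TMM and fitted with robust quasi-likelihood tests in edgeR 4.0.16 (R 4.3.3). P-values were adjusted by Benjamini-Hochberg over 11692 genes, 0.05 was the threshold, and 1 estimate of the spread served both groups. Group means and SDs of CPM use library totals. Members and lists were chosen with earlier results of these data known. Named besides the members are up to 3 called genes per list with the largest changes and a mean of at least 1 CPM, and the 3 genes nearest each called member in log2 CPM (prior count 2). Traf6, Calcrl, Ramp1, Tnfsf11 and Tnfrsf11b were chosen after their values were seen. So were the granulocyte markers Ngp, S100a9, S100a8, Lcn2, Ltf, Mpo, Elane and Cxcr2. The same holds for the macrophage markers Csf1r, Adgre1, Mertk, Lyz2, Mrc1, Cd68, Fcgr1 and C1qa, and for markers named at 0. On simulated data the fit recovered 31 of 99 changes of 1.5-fold and 67 of 99 of 2-fold, with 12 false calls. In that setting it missed most of the smaller changes, and the false calls were a larger share of its calls than the threshold of 0.05 aims at. The simulation changed 99 genes at each size among 11567 tested, whereas 31.7% of genes passed in the data. These recovery shares may therefore not hold for the data. Alternatives used DESeq2 1.42.0, limma 3.58.1 (voom, and limma-trend on log2 of TPM + 0.1 or TPM + 1), other scalings and filters, a threshold of 0.01, a fit that is not robust, a replicate block and each library left out. Python 3.11.15 made the tables and figures. Sequences come from RefSeq and GENCODE M21.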

Additional observations from a re-analysis of the deposited data

How the results depend on the processing

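Over 18 alternatives, 126 of 141 values of the 8 tested members kept their direction and their side of the threshold, 10 lost the call, 4 gained it and 1 changed sign. The change of sign was Atp6v0d2 without LFA1-lo replicate 2 (log2 fold change 0.072; −0.88 to 0.072 over fits without a library, lowest without LFA1-hi replicate 3). The count of members called higher was 1 in every alternative but that without LFA1-lo replicate 2, where it was 2 (range 1 to 2 over fits without a library). The count called lower was 1 at a threshold of 0.01 and 1 to 4 over fits without a library, lowest without LFA1-hi replicate 2 or 3, where fewer samples were fitted, and highest without LFA1-lo replicate 2. Over all genes, 1007 were higher and 1017 lower at 0.01, and 1169 to 1235 higher and 1099 to 1192 lower without an LFA1-hi library, against 1883 and 1822. Without LFA1-lo replicate 2 they were 2589 and 2443. Scaling by library totals alone moved the median of all genes by 0.06 and changed no member's call.

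Replicate numbers gave no sign of pairing: deviations from the group means correlated by 0.037, 0.018 and −0.072 between libraries of equal number. With so few libraries this cannot exclude a shared mouse or day. With the replicate block 1 member was called higher and 3 lower, as without it, and Tcirg1 lost its call. Members ranked by FPKM kept the order by TPM, but FPKM and TPM differ by a common factor within a library, so this is no independent check. Ocstamp and Ctsk fell under the filter of at least 10 CPM in 3 libraries and have no value there. Low counts limit Mmp9 and Dcstamp in LFA1-hi, and Oscar and Calcr in both groups.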
